A study of Mus musculus with 38 samples.

Results

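The 2135 distinct HSF2 binding sites of mouse embryonic stem cells were followed from asynchronous (A) to mitotic (M) cells, and the genes at those sites are named here by what happened to the HSF2 signal. The members were all intervals of the deposited HSF2 table, which has 2141 rows, 6 of them repeats of another interval. Every distinct interval had a signal above 0 in both phases. A site was placed in the gained class when its mitotic signal was at least 2 times the asynchronous signal (log2 M/A of 1 or more), in the lost class when it was at most 0.5 times (log2 M/A of -1 or less), and otherwise in the kept class. The gained class held 643 sites, the kept class 1337 and the lost class 155.

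HSF2 was profiled by CUT&Tag, in which an antibody brings a protein A-Tn5 fusion to the factor and the transposase cuts and tags the DNA next to it. All cells of the comparison were wild type JM8 mouse embryonic stem cells, either left asynchronous or given nocodazole, a microtubule poison that arrests cells in mitosis, at 50 ng/ml for 6 h, after which the mitotic cells were shaken off the plate. Each phase had 2 libraries, but the deposited value is the authors' mean of both, as spike-in scaled coverage per base, so the values carry neither a depth nor a spread between libraries and the classes are descriptions without a test. Read totals of the libraries and comparisons between replicates were not used here. A site bound in fewer cells and a site bound more weakly in each cell cannot be told apart in such bulk profiles.

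Heat shock factors bind DNA as trimers, and each subunit contacts a GAA unit of a heat shock element, an array of such units in alternating orientation. HSF1 drives the induction of chaperone genes under protein-damaging stress, whereas HSF2 is best known for roles in development and in the formation of germ cells, and it can join HSF1 in mixed trimers. During mitosis chromosomes condense and transcription largely stops, and factors that stay at their sites have been discussed as bookmarks for genes to be switched on again after division.

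3 kinds of site recur through the results, and their sequences are given first, all from the GRCm38 assembly (mm10). The first kind is a strong, kept site at a chaperone gene with a heat shock element, defined here as GAANNTTCNNGAA or TTCNNGAANNTTC, which covers both strands. Not every chaperone site held one. It was present at 3 of 6 sites of the HSP70 and HSP110 list and 4 of 10 of the HSP90 list. The chaperonin list had it at 4 of 7 sites and the HSP40 and BAG list at 2 of 10. The strong site of Hsp90ab1 had none. The sites shown were picked from those with an element. The element nearest to a transcript start is in capitals, with 8 bases on each side.
Hsph1, chr5:149636280-149636308, plus strand: actgaggaGAACTTTCCAGAAtctgcagc
Hspa8, chr9:40801213-40801241, plus strand: cggcacccTTCTGGAAGGTTCtaagacag
Hsp90aa1, chr12:110696379-110696407, plus strand: agcctccgGAACCTTCCGGAAgaaccctc
Stip1, chr19:7040271-7040299, plus strand: cctgttctTTCTGGAAATTTCcacaactc
Hspd1, chr1:55088051-55088079, plus strand: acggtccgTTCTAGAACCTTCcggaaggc
Dnaja1, chr4:40722526-40722554, plus strand: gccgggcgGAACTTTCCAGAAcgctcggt

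The centre of the element lay 44 bp downstream of the nearest annotated start of Hsph1, 75 bp upstream of that of Hspa8, 2 bp downstream of that of Hsp90aa1, 318 bp upstream of that of Stip1, 41 bp upstream of that of Hspd1 and 60 bp downstream of that of Dnaja1. The same letters were present in 198 of 32815 RefSeq promoter windows of 300 bases (0.603%). These windows run from 250 bases before to 50 after a start, whereas the elements above were sought in whole, wider sites. Counted by gene in such windows, 15 of 836 genes linked to kept sites had one. The counts were 2 of 548 at gained sites, 0 of 46 at lost sites and 179 of 26992 over all genes.

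The other kinds are lost and gained sites at starts without such an element anywhere in the site. For these, the 100 bases before the RefSeq start are shown, with CG dinucleotides in capitals, for Ebf3 and Pax9, at which HSF2 signal was lost, and for Stk4 and Crebrf, at which it was gained. Of the 1823 coding genes linked to a site, 1430 matched an entry of the RefSeq promoter table by symbol.
Ebf3, chr7:137314446-137314545, minus strand: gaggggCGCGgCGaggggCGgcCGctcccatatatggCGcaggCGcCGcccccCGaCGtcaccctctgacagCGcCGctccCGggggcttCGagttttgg
Pax9, chr12:56695371-56695470, plus strand: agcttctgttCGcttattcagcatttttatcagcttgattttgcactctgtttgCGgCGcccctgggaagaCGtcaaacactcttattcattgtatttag
Stk4, chr2:164074038-164074137, plus strand: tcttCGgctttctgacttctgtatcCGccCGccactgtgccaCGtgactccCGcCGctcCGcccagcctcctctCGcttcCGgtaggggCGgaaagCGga
Crebrf, chr17:26715550-26715649, plus strand: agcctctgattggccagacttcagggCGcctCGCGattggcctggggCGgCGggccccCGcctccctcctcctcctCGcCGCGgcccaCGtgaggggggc

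These windows held 14 CG dinucleotides at Ebf3, 4 at Pax9, 11 at Stk4 and 10 at Crebrf, so that both a lost and a gained start could be rich in CG. A further set of gained sites consisted of narrow intervals with very high mitotic signal. Whether reads map uniquely to these intervals was not tested, nor whether their sequence matches multi-copy genes such as those of ribosomal RNA. It is therefore not settled that their signal arose at these positions. The 2 shortest of them are shown whole, again with CG in capitals.
Intronic interval with E430024P14Rik as nearest start, chr17:7952269-7952439, plus strand: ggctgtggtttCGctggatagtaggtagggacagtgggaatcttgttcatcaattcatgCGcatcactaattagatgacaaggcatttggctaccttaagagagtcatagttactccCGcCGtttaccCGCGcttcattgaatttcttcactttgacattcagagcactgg
Intronic interval with Col6a6 as nearest start, chr9:105819330-105819550, plus strand: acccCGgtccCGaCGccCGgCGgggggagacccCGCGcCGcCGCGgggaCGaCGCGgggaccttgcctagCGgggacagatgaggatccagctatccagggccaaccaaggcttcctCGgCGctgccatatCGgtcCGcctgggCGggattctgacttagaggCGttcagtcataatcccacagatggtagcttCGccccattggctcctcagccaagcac

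The first interval is 171 bp wide and went from a signal of 6.30 in asynchronous cells to 122 in mitotic cells. The second is 221 bp wide and went from 17.7 to 173. Both lie in introns.

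Over all sites, 30.1% gained and 7.26% lost at least 2-fold (Wilson 95% intervals 28.2 to 32.1% and 6.23 to 8.44%, which describe the sites of these averaged tracks and not the variation between cultures). The median asynchronous signal was 2.32 in the gained, 4.85 in the kept and 14.3 in the lost class, and the median mitotic signal was 6.91, 5.68 and 3.23. Those levels follow in part from the way the classes were made. Since the median log2 M/A of all sites was 0.49, a common shift between the phases decides how the sites divide. With that median subtracted, 318 sites gained and 310 lost.

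A site was linked to every gene with a transcript start inside it or within 1 kb of it. In all, 1684 sites were linked to 2437 genes, of which 1823 were protein-coding. Among linked sites the background was 33.8% gained and 5.64% lost, with 570 gained, 1019 kept and 95 lost sites and a median log2 M/A of 0.61. Coding genes numbered 648 at gained, 1103 at kept and 79 at lost sites. Only 21 genes were linked to 2 sites and none to 3 or more. In 13 of the 21 both sites were in the same class, and none had one gained and one lost site.

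**Figure D1:**
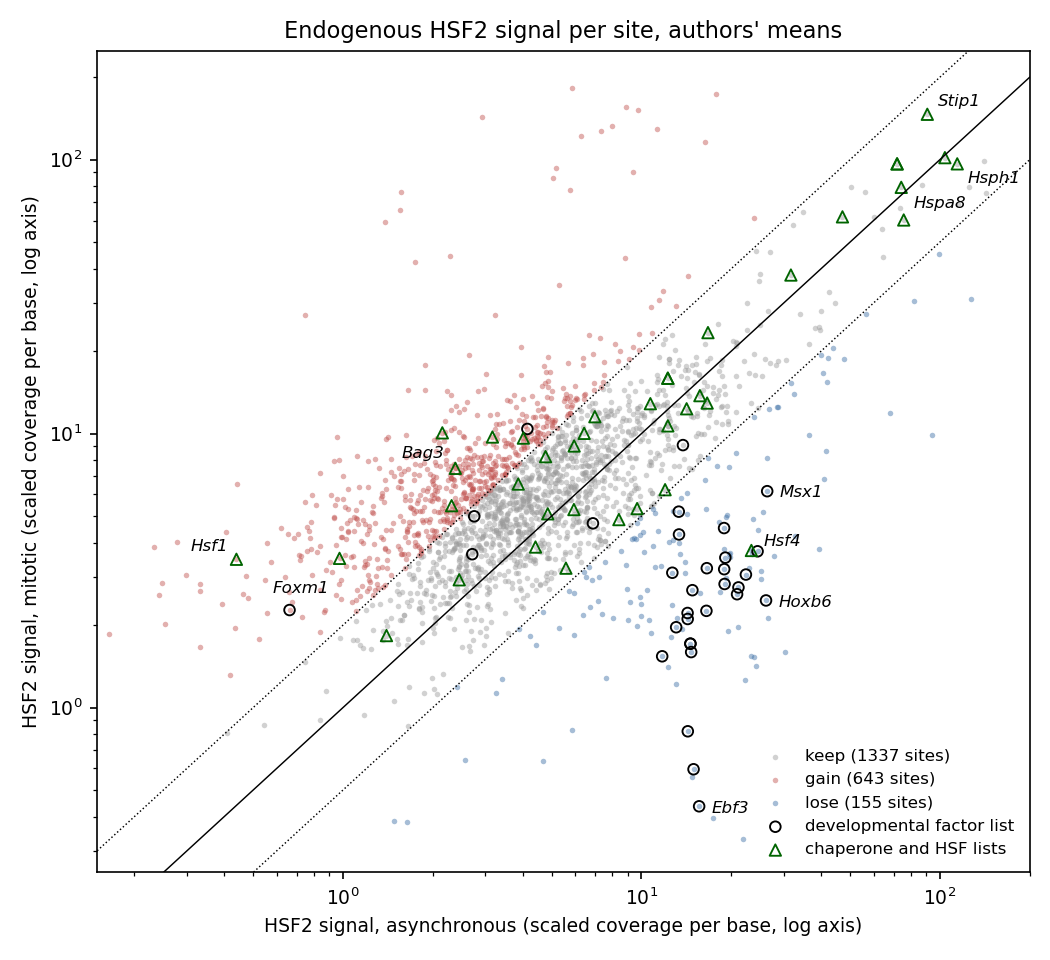
HSF2 signal of each site in asynchronous cells (x axis) and mitotic cells (y axis), in scaled coverage per base on log axes. Each point is a site coloured by class, the solid line marks equal signal, the dotted lines mark 2-fold differences, circles are sites at developmental transcription factor genes and triangles are sites at chaperone and heat shock factor genes. The circles gather below the lower dotted line at asynchronous signals of 11.7 to 26.4, and the strongest triangles lie between the dotted lines.

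Many of the lost sites stood at genes for developmental transcription factors, which specify tissues and body axes in the embryo. The list took in the Hox, Pax, Sox, Fox, Tbx, Otx, Dlx, Irx, Meis and related families, 189 annotated genes, of which 30 had a linked HSF2 site. Of their 31 sites 25 were lost, 4 kept and 2 gained, and the median log2 M/A was -2.69 beside 0.61 over all linked sites. The share lost was 80.6% (Wilson 95% interval 63.7 to 90.8%), against 5.64% of all linked sites. The list was chosen with earlier results of these data known, so this share describes the list and is no independent support. After the common median was subtracted, 27 of the 31 were in the lost class, beside 184 of all 1684 linked sites.

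The signal at the 25 lost sites ran from 11.7 to 26.4 in asynchronous cells with a median of 15.6, and from 0.436 to 6.16 in mitotic cells with a median of 2.68. No site of the 25 had a mitotic signal as high as the lowest asynchronous one. The class rule, mitotic signal at most 0.5 times the asynchronous, nearly fixes this. The deepest loss of the list was at Ebf3, a factor of neuronal differentiation, where signal went from 15.6 to 0.436 (log2 M/A -5.16). At Msx1, a homeobox gene of craniofacial and limb development and the list's site of highest mean signal, it went from 26.4 to 6.16 (-2.10). At Hoxb6, which has a role in the patterning of the body axis, it went from 26.2 to 2.46 (-3.41).

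Other members are named here after their values were seen. Both sites at Otx2, which is needed for the forebrain, were lost, from 15.0 to 0.595 (-4.65) and from 14.3 to 2.11 (-2.76). Further lost members included Meis2 (-3.20), Dlx1 (-3.01), Pax9 (-2.95), Tbx3 (-2.87), Tbx2 (-2.87), Pax2 (-2.75), Otx1 (-2.72), Foxc2 (-2.57), Irx3 (-2.44), Foxd1 (-2.36) and Sox21 (-2.03), besides the Hox genes described below.

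The 6 sites that were not lost belonged to 6 genes. Signal at Foxm1, an activator of genes needed for cell division, was 0.662 in asynchronous and 2.27 in mitotic cells (1.78). Signal at Sox12 was 4.15 and 10.4 (1.33). The kept sites were at Foxn2 (0.86), Foxo3 (0.42), Foxo6 (-0.55) and Irx5 (-0.60). Of the 6, only Irx5, at 13.8 in asynchronous cells, had an asynchronous signal within the range of the lost members.

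The lost class holds sites of high asynchronous signal by its making. Of the 90 linked sites outside the list with an asynchronous signal between 11.7 and 26.4, the range of the list's lost sites, 29 were lost (32.2%), 58 kept and 3 gained, with a median log2 M/A of -0.37 and a median mitotic signal of 11.2. Since the lost members set this range, no share of the list within it is set against these.

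Losses reached past the starts. Of the 8 sites that lay 1 to 5 kb from a start of a gene of the list 7 were lost, as were 6 of 14 at 5 to 20 kb, whereas at 20 to 100 kb 1 of 37 was lost and beyond 100 kb 113 of 2037 (5.55%). Within 20 kb of the list's starts lay 53 sites, 38 of them lost (71.7%).

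The HoxB and HoxC clusters showed this most compactly. They held (counted after their values were seen) 11 sites within 20 kb of a Hoxb or Hoxc start, 7 in HoxB and 4 in HoxC, and every one was in the lost class. Asynchronous signal ranged from 11.7 to 26.2 and mitotic signal from 0.395 to 5.19 over the 11. In HoxB, the steepest difference was at the start of the noncoding gene Gm11535, 15952 bp from the nearest start of Hoxb13, from 17.4 to 0.395 (-5.47), followed by Hoxb2, from 14.3 to 0.819 (-4.13). In HoxC, signal went from 13.1 to 1.96 at Hoxc6 (-2.73), from 14.8 to 2.68 at Hoxc5 (-2.47), from 13.4 to 4.28 at Hoxc11 (-1.64) and from 13.3 to 5.19 at Hoxc13 (-1.36). The HoxC sites thus kept more of their signal at Hoxc11 and Hoxc13 than at Hoxc5 and Hoxc6.

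**Figure D2:**
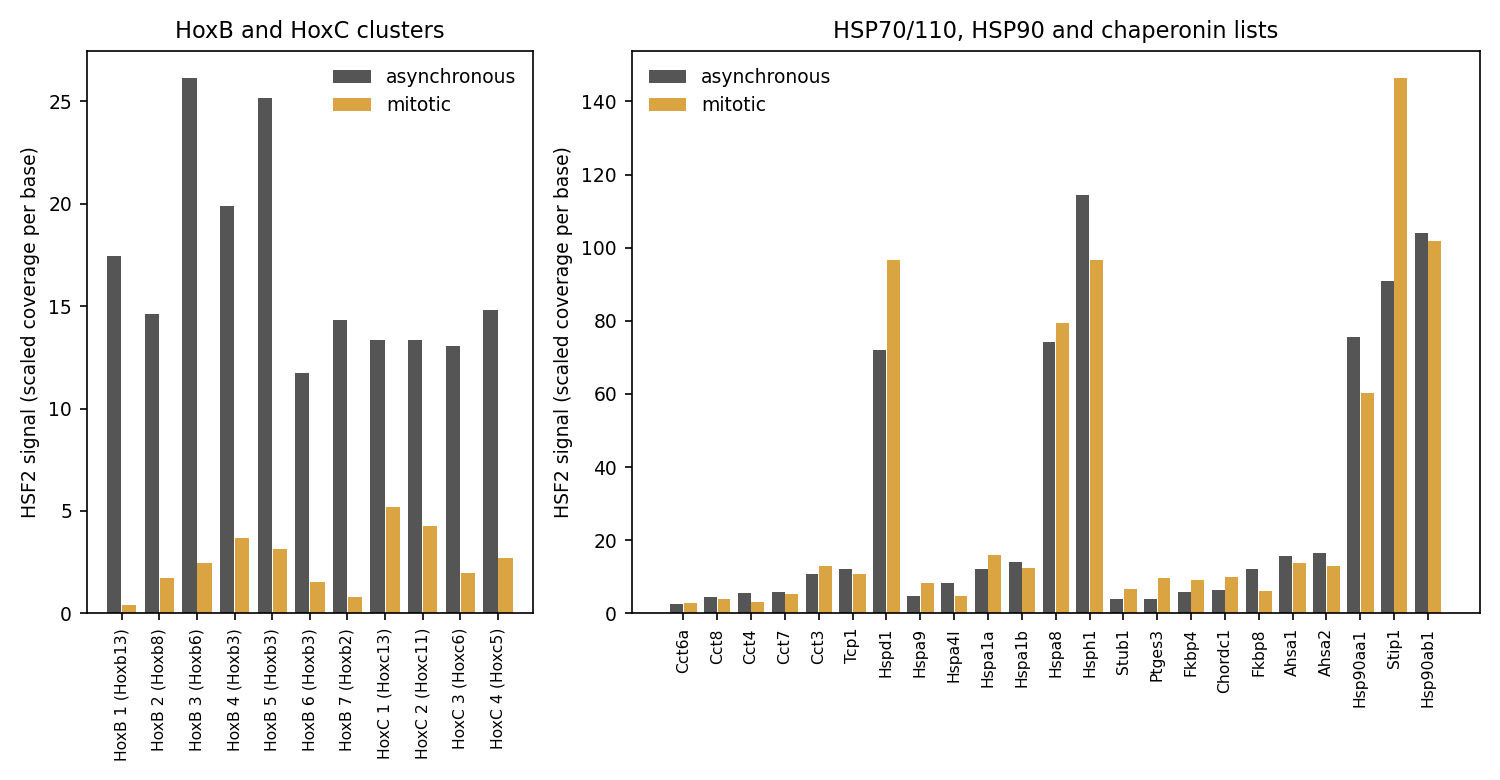
HSF2 signal in scaled coverage per base, in asynchronous (grey) and mitotic (yellow) cells, at each site of the HoxB and HoxC clusters in genome order with the nearest coding gene in brackets (left), and at each site of the HSP70 and HSP110, HSP90 and chaperonin lists, named by 1 linked gene (right). Bars are the authors' means and carry no error. All 11 Hox sites are lower in mitotic cells, while of the chaperone sites all but 1, that of Ptges3, are in the kept class.

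The 10 deepest losses among linked sites with at least the median mean signal included, besides Gm11535, Ebf3, Otx2, Hoxb2 and Hoxb6, the site at Vwc2, which encodes a secreted antagonist of BMP signalling (30.3 to 1.60, log2 M/A -4.24), and a site at Tfap2a, a regulator of the neural crest (23.8 to 1.53, -3.95). They also included Otp, a homeobox gene of the hypothalamus (26.7 to 2.12, -3.65), and 2 noncoding loci, Gm44946 with Gm44948, whose nearest coding start is that of Nr2f2 (22.3 to 1.26, -4.14), and Gm30177, whose nearest coding start is that of Nrn1 (21.1 to 1.97, -3.42). A second site at Tfap2a went from 25.1 to 2.95 (-3.09). The deepest losses away from starts were near 2610034O05Rik and Onecut3 (21.9 to 0.331, -6.05), 3570 bp from a start of Pax2 (14.8 to 0.557, -4.73) and near 8430419K02Rik (24.2 to 1.42, -4.09).

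Some other lost sites are named here for their loss, after their values were seen, and stand for no gene group. Signal at Cbx8 and Cbx2, which encode chromodomain subunits of Polycomb repressive complex 1, went from 32.8 to 4.24 (-2.95) and from 4.67 to 2.23 (-1.06). At Six3os1, beside the eye and forebrain gene Six3, it went from 39.3 to 3.78 (-3.38). At Vax2os it went from 23.4 to 3.62 (-2.69), and at Hand2, a gene of heart and limb development, from 19.2 to 2.96 (-2.70). Eomes, a gene of mesoderm and trophoblast, had 18.2 and 4.75 (-1.94).

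**Figure D3:**
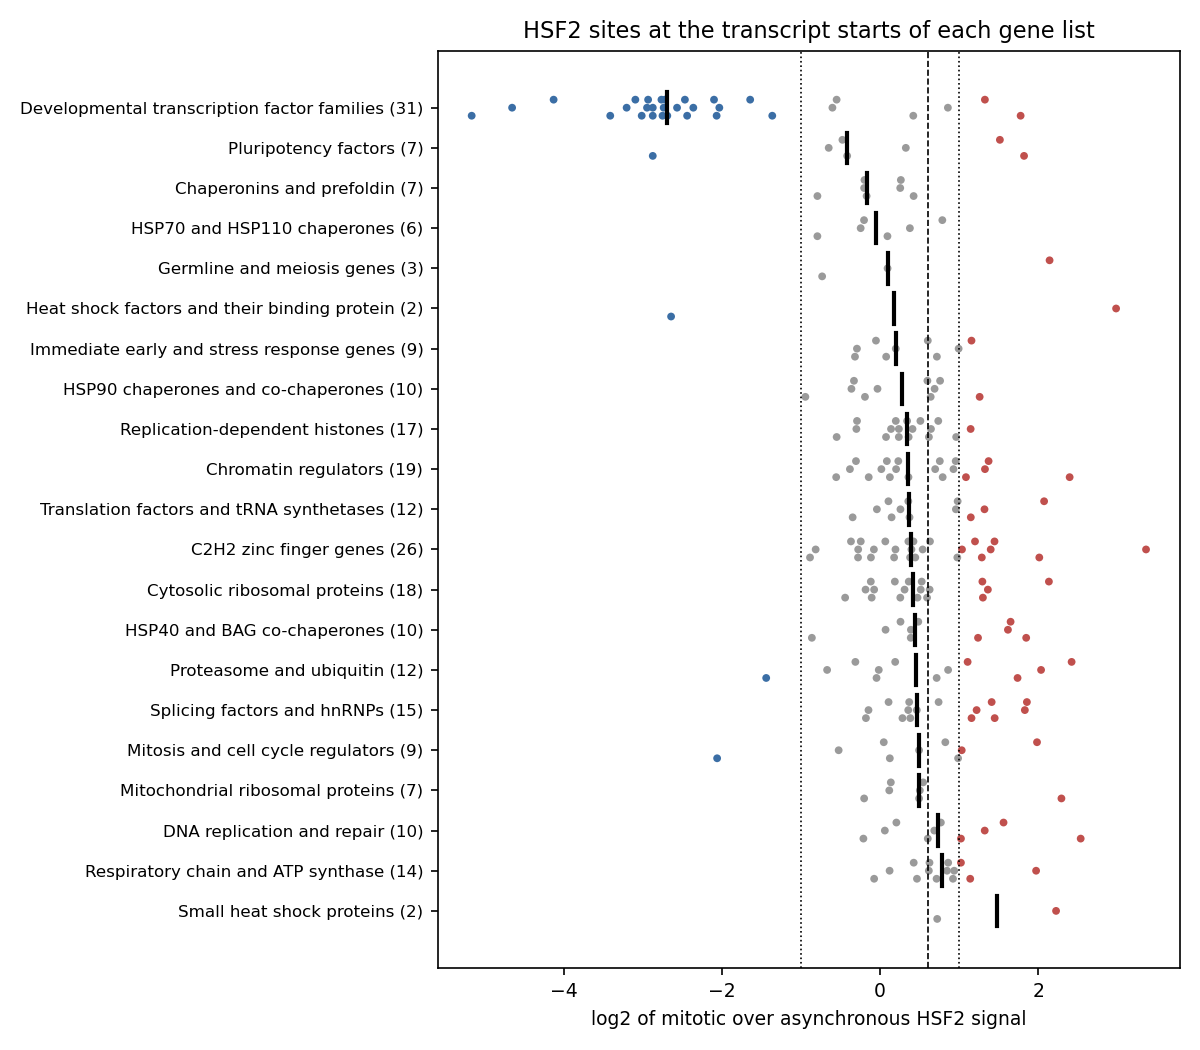
The log2 of mitotic over asynchronous HSF2 signal at the linked sites of each gene list, with the number of sites in brackets. Points are sites coloured by class (red gained, grey kept, blue lost), thick bars are list medians, dotted lines mark 2-fold differences and the dashed line the median of all 1684 linked sites, 0.61. The developmental factor list lies apart at a median of -2.69. The lists were chosen with earlier results of these data known.

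Chaperone genes, the classical targets of heat shock factors, mostly stayed in the kept class. The 6 lists of chaperones, co-chaperones and heat shock factors together had 37 linked sites, of which 29 were kept, 7 gained and 1 lost (background among linked sites, 33.8% gained and 5.64% lost), with a median log2 M/A of 0.26. With the common median subtracted they divided into 5 gained, 27 kept and 5 lost. All 1684 linked sites then divided into 279 gained, 1221 kept and 184 lost.

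All 6 sites of the HSP70 and HSP110 list were kept, with a median log2 M/A of -0.05. Hsph1, which encodes an HSP110 nucleotide exchange factor of HSP70, had a signal of 114 in asynchronous and 96.6 in mitotic cells (-0.24). The stress-inducible Hspa1a, which shares its site with Hspa1l, had 12.3 and 15.9 (0.38), and the inducible Hspa1b had 14.2 and 12.3 (-0.20). Hspa8, the constitutive cytosolic HSP70, had 0.09, Hspa9, the mitochondrial HSP70, had 0.79 and Hspa4l, an HSP110 relative, had -0.79. Reads at the near-identical Hspa1a and Hspa1b can be shared between them.

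Of 10 sites of the HSP90 list 9 were kept and 1 gained, with a median of 0.28. Hsp90ab1, the constitutive HSP90, had 104 in asynchronous and 102 in mitotic cells (-0.03). Stip1, which joins HSP70 to HSP90, had 90.8 and 147 (0.69). The gained member was Ptges3, the p23 co-chaperone, at 4.02 and 9.63 (1.26), and at the low end stood Fkbp8 at 12.0 and 6.24 (-0.94). The remaining members were Stub1 (0.76), Chordc1 (0.64), Fkbp4 (0.60), Ahsa1 (-0.19), Hsp90aa1 (-0.33) and Ahsa2 (-0.36).

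All 7 sites of the chaperonin list were kept, with a median of -0.17. The bidirectional promoter of Hspd1 and Hspe1, which encode the mitochondrial chaperonin and its lid, had 71.9 and 96.6 (0.43). The TRiC subunit genes ran from Cct4, at 5.58 and 3.23 (-0.79), through Tcp1 (-0.20), Cct8 (-0.20), Cct7 (-0.17) and Cct6a (0.26) to Cct3 (0.26). No prefoldin gene had a site.

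The HSP40 and BAG list, which also took in other co-chaperones such as Hspbp1 and Grpel2, had 6 kept and 4 gained sites of 10. Its median was 0.44, and its gained share was near the 33.8% of all linked sites. The strong sites were kept, Dnajb1 at 47.2 and 61.9 (0.39), Dnaja1 at 31.7 and 37.9 (0.26) and Hspbp1 at 16.7 and 23.4 (0.48). The gained sites were weak in asynchronous cells, Bag3 at 2.38 and 7.47 (1.65), Dnajc16 at 3.17 and 9.72 (1.62), Dnajc13 at 2.31 and 5.46 (1.24) and Grpel2 at 0.973 and 3.50 (1.85). Dnajb11 (0.07), Dnajc14 (0.39) and Dnajb6 (-0.86) were kept.

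Among small heat shock proteins, Hspb1 was kept at 6.98 and 11.5 (0.72) and Hspb11, which despite its name encodes a component of the intraflagellar transport machinery, was gained at 2.15 and 10.1 (2.23). The heat shock factor genes went apart. Signal at the start of Hsf1 was 0.439 in asynchronous and 3.48 in mitotic cells (2.99), and at Hsf4, a factor of lens development, 23.4 and 3.75 (-2.64). The ratio at Hsf1 rests on a low asynchronous value, where the median over all sites was 4.14. No site was linked to Hsf2 itself.

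The 10 linked sites of highest mean signal were all kept, with log2 M/A from -0.73 to 0.69. Besides Stip1, Hsph1, Hsp90ab1, Hspd1 with Hspe1, Hspa8 and Hsp90aa1, they were Spo11, the meiotic endonuclease that makes double-strand breaks (115 and 69.2, -0.73), Slc35e2 (87.5 and 81.2, -0.11), the shared promoter of Hnrnpa2b1 and Cbx3 (73.6 and 66.5, -0.15) and Uspl1, a SUMO protease (56.2 and 76.4, 0.44).

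Gained sites were chiefly at coding starts with little signal in asynchronous cells. Of the 643, 539 (83.8%, Wilson 95% interval 80.8 to 86.5%) lay within 1 kb of a coding start, beside 72.9% of all sites. The 539 had a median signal of 2.29 in asynchronous and 6.69 in mitotic cells, levels that follow in part from how the class was made. Among those with at least the median mean signal, the largest differences were at Stk4, a kinase of the Hippo pathway (0.951 to 9.76, 3.36), 2900026A02Rik (1.88 to 14.4, 2.94) and Rxylt1, a glycosyltransferase acting on dystroglycan (1.39 to 9.52, 2.78). Coding starts chosen after their values were seen added Cnnm2 (2.67), Immt, of the inner mitochondrial membrane (2.61), Crebrf (2.59) and Dazap2 (2.46). Large ratios of gained sites, here and in the gene lists, can rest on low asynchronous values. With a pseudocount of 1, 444 sites gained in place of 643.

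The housekeeping lists had kept and gained sites, beside 33.8% gained and 5.64% lost over all linked sites. Cytosolic ribosomal protein genes had 14 kept and 4 gained sites, the strongest gain being Rps21 (2.10 to 9.25, 2.14). Respiratory chain genes had 11 kept and 3 gained, led by Ndufa6 (1.72 to 6.77, 1.97), with a median of 0.78. Splicing genes had 9 kept and 6 gained, led by U2af1 (0.673 to 2.44, 1.86), and DNA replication and repair genes 6 kept and 4 gained, led by Rpa1, a subunit of the single-strand binding complex (0.996 to 5.78, 2.54). Translation genes had 9 kept and 3 gained, led by Eif4g1 (2.07), and mitochondrial ribosomal protein genes 6 kept and 1 gained, Mrps18b (2.29). None of these 6 lists had a lost site.

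Proteasome and ubiquitin genes had 7 kept, 4 gained and 1 lost site, from Ubqln1 (5.30 to 1.95, -1.44) to Psmd7 of the proteasome lid (0.774 to 4.15, 2.42). Chromatin regulators had 15 kept and 4 gained, from Kmt5a (-0.55) to Suz12, a subunit of Polycomb repressive complex 2 (1.22 to 6.41, 2.40). C2H2 zinc finger genes had 19 kept and 7 gained, up to Zfp318 (0.297 to 3.06, 3.36). The 38 replication-dependent histone genes with a site shared 17 sites, 16 of them kept and 1 gained, with log2 M/A between -0.55 and 1.15. Immediate early and stress response genes had 8 kept and 1 gained site, Atf4 (1.16). Germline genes had 2 kept and 1 gained, Tex14 (1.88 to 8.30, 2.14). In each of these lists the share gained was at or below the 33.8% of all linked sites, and in none did the median reach 0.61.

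Pluripotency genes of the stem cell state had sites in all classes, 4 kept, 2 gained and 1 lost, with a median of -0.41. Klf4 went from 1.15 to 4.07 (1.82) and Klf5 from 1.67 to 4.77 (1.52). Pou5f1 (-0.65), Mycn (-0.47), Klf2 (-0.41) and Stat3 (0.33), some of them named after their values were seen, were kept, and the lost member was Tbx3, which stands in the developmental list too. Cell cycle genes, likewise, were kept at 6 sites and gained at 2, Cdc25a (0.558 to 2.21, 1.99) and Ccne1 (1.03), and lost at Ccnd2, for cyclin D2 (9.94 to 2.38, -2.06), while Ccnd1 (0.83) and Ccnd3 (-0.52) were kept.

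Classes differed in their sequence and position. A heat shock element was present in 27 of 642 gained sites (4.21%, Wilson 95% interval 2.91 to 6.05%), 254 of 1335 kept sites (19.0%, 17.0 to 21.2%) and 19 of 154 lost sites (12.3%, 8.04 to 18.5%), counting sites on the assembled chromosomes. Of the 45 sites with 2 or more elements none was gained, 41 were kept and 4 lost. Signal goes with the element, and the median asynchronous signal was 8.87 with an element and 3.82 without. Among sites with at least the median mean signal, 5.51% of 236 with an element gained and 29.3% of 830 without. Among the weaker sites these shares were 21.9% of 64 and 37.2% of 1001.

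Lost sites were less often at starts. The share within 1 kb of a coding start was 50.3% in the lost class (42.5 to 58.1%), 70.2% in the kept (67.7 to 72.6%) and 83.8% in the gained class. Introns away from starts held 15.5% of lost sites, 6.21% of kept and 3.89% of gained sites. Intervals under 1 kb made up 17.4% of the lost, 3.59% of the kept and 3.42% of the gained class. The ratio of observed to expected CG dinucleotides was highest in gained sites, with a median of 0.654 against 0.578 in kept and 0.571 in lost sites, but at the 25 lost developmental sites its median was 0.648.

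**Figure D4:**
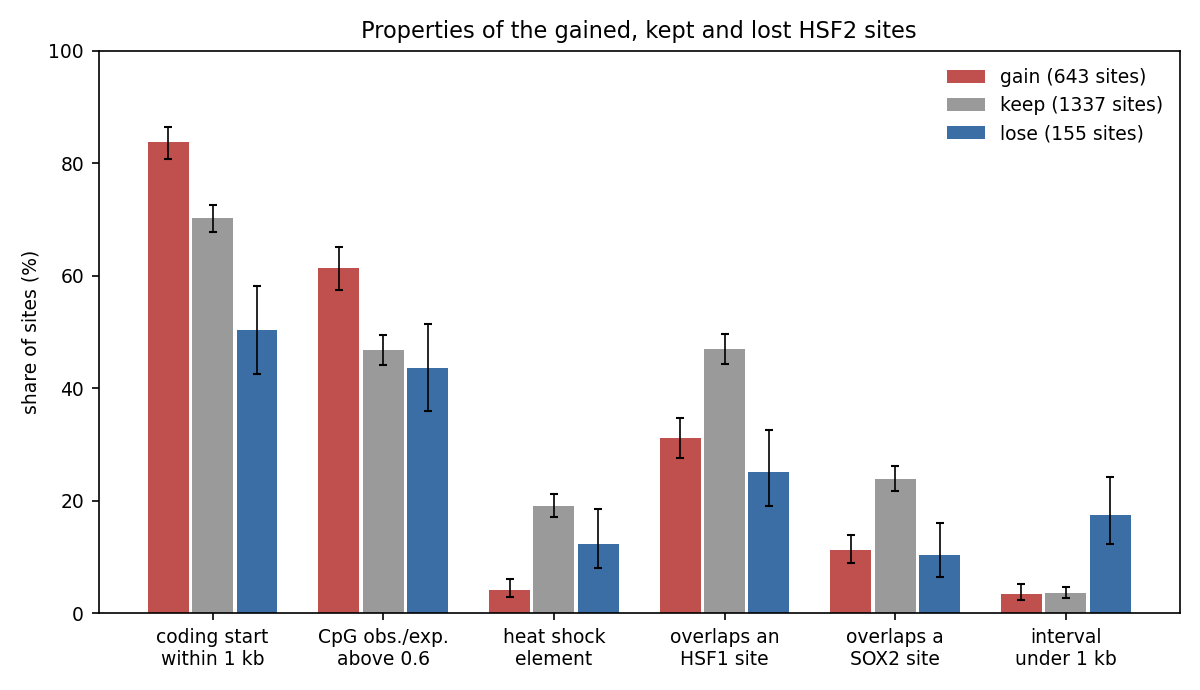
Share of gained (red), kept (grey) and lost (blue) sites, in percent, that lie within 1 kb of a coding start, have an observed over expected CG ratio above 0.6, hold a heat shock element, overlap an HSF1 site, overlap a SOX2 site or are under 1 kb wide. Error bars are Wilson 95% intervals over sites. The heat shock element is least frequent in gained sites, at 4.21%, and overlap with HSF1 most frequent in kept sites, at 47.0%.

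Kept sites coincided most often with those of other factors. An HSF1 site of the same cells overlapped 47.0% of kept sites (44.4 to 49.7%), 31.1% of gained sites (27.6 to 34.8%) and 25.2% of lost sites (19.0 to 32.5%). A SOX2 site, from a published list that the authors deposited, overlapped 23.9%, 11.2% and 10.3%. Of the 243 sites shared with both factors 203 were kept (83.5%), 34 gained and 6 lost, whereas of the 1103 shared with neither 592 were kept (53.7%), 405 gained and 106 lost. Only 2 of the 25 lost developmental sites overlapped an HSF1 site.

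Of 159 pairs of adjacent sites at most 10 kb apart, 104 were in the same class, 77 of them with both sites kept, where 62.6% of all sites were kept. Among the 59 pairs with a gained member both were gained in 10, where 30.1% of all sites were gained. Among the 24 pairs with a lost member both were lost in 17, where 7.26% of all sites were lost. In 1 pair a gained site stood beside a lost one. The percentages are of single sites, and no expected share of pairs was computed.

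A small set of gained sites had very high mitotic signal, at intervals for which unique mapping was not tested. For 21 gained sites it exceeded 40, a level set after the values were seen, with a median of 93.5 in mitotic and 6.30 in asynchronous cells. These intervals had a median width of 718 bp beside 2395 bp over all sites, none held a heat shock element, and 16 were linked to no start. Masked repeats covered a median of 17.3% of their bases, beside 12.4% over all sites, and 80.4% of the interval near Gm14358, and the part of repeats in the signal was not tested. The largest differences were near Gm27679 (2.93 to 143, 5.61), at the miRNA gene Gm23388 (1.56 to 76.1, 5.60), near Gm7860 (1.38 to 59.4, 5.43) and near Gm14358 (1.55 to 65.7, 5.40). At noncoding starts followed AC166748.2 (5.18 to 93.5, 4.17), Gm25911 (5.04 to 85.5, 4.09) and the pseudogene Gm9353 (9.41 to 89.9, 3.26), as well as Mir6240 (3.24 to 27.1, 3.07), Gm24245 with Gm25732 (2.65 to 19.4, 2.88) and Gm27940 (5.28 to 34.8, 2.72), whose mitotic signal was below 40. A single interval of the 21, at Crlf2, lay at a coding start (8.84 to 43.8, 2.31).

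The same intervals were also measured with tagged proteins in Hsf2 knockout cells that carried Halo-HSF2, probed with anti-HSF2 or with anti-HA, or the HSF2 DNA-binding domain alone (Halo-H2DBD), probed with anti-HA. These columns were not used to make the classes. Their signal was low, with asynchronous medians over all sites of 1.58, 1.36 and 1.64 in that order, beside 4.14 for endogenous HSF2. At the 10 linked sites of highest mean endogenous signal, asynchronous anti-HSF2 signal on Halo-HSF2 ran from 0.928 to 3.10. Endogenous HSF2 ran there from 56.2 to 115. The ratios of the tagged proteins thus rest on low values, also at the strongest sites. With anti-HSF2, the median log2 M/A of Halo-HSF2 was 0.95 over gained, 0.56 over kept and -0.07 over lost sites, and Spearman's rho with the endogenous log2 M/A was 0.30 over 2121 sites. With anti-HA on Halo-HSF2 the medians were 0.57, 0.53 and 0.76, in another order, and rho was 0.0017 over 2135 sites. For Halo-H2DBD they were 0.14, 0.07 and -0.01, with a rho of 0.10. All of these points share their intervals, and those with the same antibody share that antibody. The signal of anti-HSF2 in Hsf2 knockout cells without a construct and of IgG was not analysed here, so the part of antibody background in these ratios was not tested.

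At the 25 lost developmental sites, the median signal of anti-HSF2 on Halo-HSF2 was 2.35 in asynchronous and 1.33 in mitotic cells, with a median log2 M/A of -0.77 and single sites from -2.03 to 1.75. It was below 0 at 20 of the 25, and below 0 at 20.3% of all sites. With anti-HA on Halo-HSF2, the median signal was 0.674 and 1.17 and the median log2 M/A 0.80, and 2 of the 25 were below 0, beside 13.7% of all sites. For Halo-H2DBD, 9 of the 25 were below 0, beside 41.4% of all sites. Over the whole developmental list of 31 sites, which includes those not lost, anti-HSF2 on Halo-HSF2 was below 0 at 21. It was at -1 or less at 7, beside 62 of all 2121 sites with a value (2.92%). With anti-HA on Halo-HSF2, 2 of the 31 were below 0.

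At the 21 gained sites with mitotic signal above 40, anti-HSF2 on Halo-HSF2 had a median log2 M/A of 2.86 and was at least 2-fold higher in mitosis at 19 of the 20 with a value. With anti-HA the median was 0.03 on Halo-HSF2, with 1 of 21 at least 2-fold higher, and -0.39 on Halo-H2DBD, with 0 of 21. At the 539 gained coding starts, anti-HSF2 on Halo-HSF2 had a median of 0.93 and anti-HA 0.58, beside 0.64 and 0.57 over all sites.

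**Figure D5:**
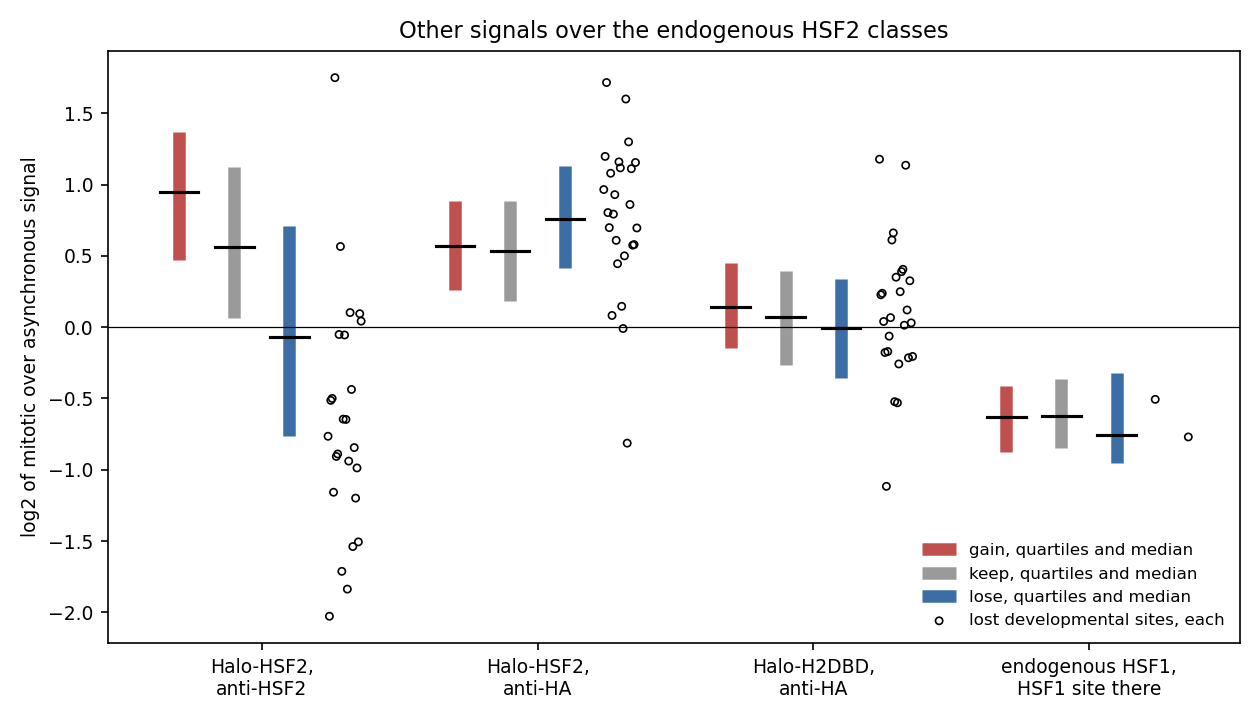
The log2 of mitotic over asynchronous signal for other proteins and antibodies (y axis) over the gained (red), kept (grey) and lost (blue) sites of endogenous HSF2. Coloured bars span the quartiles over sites, black bars are medians and circles are single lost sites of the developmental list. Anti-HSF2 on Halo-HSF2 falls from 0.95 over gained to -0.07 over lost sites, whereas anti-HA has 0.57 and 0.76.

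HSF1 signal in wild type cells, read over the HSF1 interval with the longest overlap, had a median below 0 in each class. Its median log2 M/A was -0.63 at the 200 gained, -0.63 at the 629 kept and -0.75 at the 39 lost sites that overlapped an HSF1 site, and rho with the HSF2 log2 M/A was -0.04. Of those 868 sites 2 were at least 2-fold higher and 122 at least 2-fold lower for HSF1. Gains of HSF2 at shared sites were thus not accompanied by gains of HSF1.

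The limits of the classes fell among ordinary sites. Just inside the gained class were Pex5 (1.80 to 3.60), Utp23 and Mxd1, with log2 M/A of 1.00 each, and just outside Actr5 (5.02 to 10.0), Egr1 and Bnip3, at 1.00, 0.99 and 0.99. Just inside the lost class were Nr3c2 (9.89 to 4.94), a site near AC131065.1 (-1.01) and one near Etnk1 (-1.03), and just outside a site near Tle3 (14.7 to 7.40), Fzd2 and Rbm38, at -0.99 each.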

How the data were processed

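CUT&Tag reads were aligned to mm10 with Bowtie2, and coverage was scaled by the authors to reads of a Drosophila (dm6) spike-in. FastQC, deepTools and bedtools are also named in the submitters' processing notes. The authors called sites with SEACR, using IgG as the control, and joined the lists of both phases. The deposited values are this coverage signal, averaged by the authors over each site and over 2 libraries per condition. They are not read counts and carry no depth, and the read totals of the libraries were not used here.

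Starting from these values, log2 M/A was taken without a pseudocount and classes were set at 2-fold. Transcript starts came from the GENCODE M21 basic annotation (GRCm38, the same assembly as mm10), sequences and promoters from RefSeq GRCm38. A start within 1 kb linked a gene to a site, and 1 bp of overlap joined site lists. Developmental, chaperone and other gene lists (21 in all), the members and the rule for named sites were chosen with earlier results of these data known. That rule takes the 10 strongest linked sites, the 10 largest rises and falls (3 for unlinked sites) at or above the median mean signal, sites at the class limits, all chaperone and heat shock factor genes, and up to 4 members of each other list (the highest and lowest log2 M/A and the 2 strongest). Some loci are not reported here. No test was made, since no separate replicates enter. Wilson 95% intervals are over sites. The class calls and the element search were tested on simulated data. Python 3.11.15, numpy 2.4.6, pandas 2.3.3, scipy 1.17.1, pysam 0.24.0, samtools 1.23.1 and matplotlib 3.10.9 were used. Pseudocounts, signal minimums, repeats, merging, centring, fold thresholds, start windows and the element's definition were varied.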

Additional observations from a re-analysis of the deposited data

How the results depend on the processing

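The numbers of gained and lost sites stayed within 1.5 times of 643 and 155 with pseudocounts of 0.1 and 1, with a minimum mean signal of 1, with repeated rows, with touching intervals merged (2135 remained) and, in an alternative chosen after seeing the data, with the means of the deposited site list. The 1068 sites at or above the median mean signal gave 256 gained sites. Over all 2135 sites, centring on their median gave 318 gained and 310 lost, a 1.5-fold limit 985 and 285, and a 3-fold limit 276 and 97. The median log2 M/A of 0.49 became 0.41 with a pseudocount of 1, 0.29 at or above the median mean signal and 0 by construction with centring. With starts within 5 kb the linked shares were 92.2% of gained, 82.6% of kept and 77.4% of lost sites, and with a start inside the interval 52.9% of lost sites were linked. With 2 inverted units as the element, the shares were 63.1%, 74.1% and 67.5%. The median of the developmental list ranged from -3.18 to -2.25 over 7 alternatives. Centring turned the sign of the median in 12 of 21 lists, the signal minimum at the median in 6, and pseudocount 1 and the 5 kb window in 1 each. The cause was not tested. No paired analysis was possible because the deposited columns are means of both libraries, and no library could be left out for the same reason.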

Other observations

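A block of wide sites, singled out after its values were seen, on chromosome 6 between Ezh2 and Pdia4 (mm10, 47653158 to 47780606) held 6 sites, away from any start. In 5 of them, 4139 to 22573 bp wide, signal was between 26.9 and 47.7 in asynchronous cells and between 9.89 and 18.7 in mitotic cells, with log2 M/A from -1.89 to -1.13. The sixth, nearest to the Y RNA gene Rny3, was kept at 5.23 and 5.89 (0.17).

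By chromosome, the lost share ran highest among autosomes on chromosome 13, with 9 of 62 sites (14.5%). Chromosome 11, which carries the HoxB cluster, held the largest number, 35 of 324 (10.8%). By the number of linked genes, sites with 2 linked genes were gained in 39.2% of 497, those with 1 in 32.8% of 1071 and those with 3 or more in 20.7% of 116.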
